A study of Homo sapiens with 4 samples.

Results

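Heme breakdown and iron storage were examined through 10 genes, chosen by symbol from the 23228 genes counted in ES2 cells, an established human ovarian cancer cell line. The genes were HMOX1, HMOX2, BLVRA, BLVRB, FTH1, FTL, FECH, SLC40A1, SLC11A2 and IREB2, and all 10 had a row in the count tables. The choice applied no cutoff to a measured value, but it was made with earlier results of these data known. ES2 cells were kept in phenol red-free RPMI-1640 with charcoal-treated serum and received either vehicle or liquiritigenin (Liq), a plant flavanone used in the study as an agonist of estrogen receptor beta, at a single dose for 24 h. Total RNA was sequenced from 2 samples per group, and whether the 2 samples came from separate cultures is not stated, so the p-values measure the spread between these samples only. All samples were of the same cell line, and nothing but the treatment was labelled as different between the groups.

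Heme oxygenase opens the heme ring and releases iron, carbon monoxide and biliverdin, and biliverdin reductase turns biliverdin into bilirubin. The freed iron is stored in ferritin, a hollow shell of heavy and light chains, or leaves the cell through ferroportin. The transcription factor NRF2 is known to switch on HMOX1 and the ferritin genes from antioxidant response elements, BACH1 holds the same elements silent until it binds heme, and the iron regulatory proteins hold back ferritin translation by binding a hairpin in the messenger when iron is scarce.

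The ferritin genes have many processed copies in the genome, and HTSeq, which made these counts, leaves out reads that align equally well to more than 1 place. The transcript of each gene was therefore cut into all windows of 100 bases, the read length given in the labels, and each window was searched for in the rest of the GRCh37 genome. Of 1104 windows of FTH1, 22.55% had an identical copy elsewhere and 53.35% had a copy with at most 2 mismatches. For FTL the shares were 3.37% and 50.13% of 772 windows. In FTH1 the copies lay mainly over the coding part, where 94.89% of windows had a copy within 2 mismatches, against 24.77% of windows that reached outside it. In FTL 62.21% of coding windows and 35.26% of the others had one. The FTH1 matches fell in 25 stretches on 11 chromosomes and those of FTL in 2 stretches on 2 chromosomes. Of the other 8 genes, 7 had no such copy, and in IREB2 8 of 6225 windows had one within 2 mismatches, so among these genes the copies lay mainly in the ferritins.

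**Figure D1:**
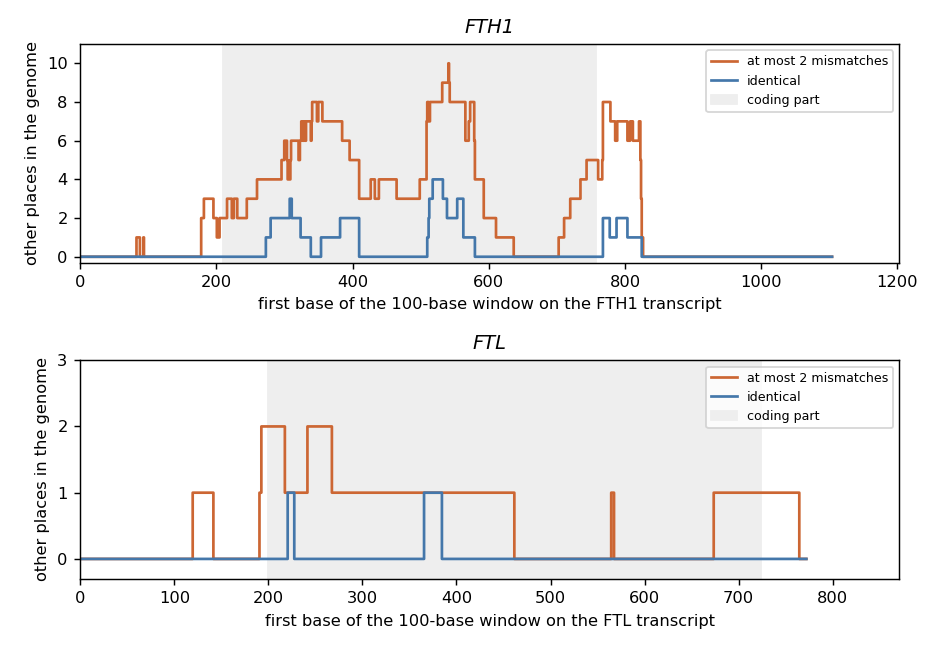
Number of other places in GRCh37 that match each 100-base window of the FTH1 (top) and FTL (bottom) transcript, with no mismatch (blue) or at most 2 (orange), against the position of the first base of the window, with the coding part shaded. Up to 10 places matched a window of FTH1 within 2 mismatches and up to 2 matched a window of FTL, while the end of the FTH1 transcript had none.

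The start of the FTL coding sequence shows a close copy, though not an identical one. For FTL the nearest copy was FTLP3 on chromosome 20, which held identical copies of 26 other FTL windows. The first 100 coding bases of FTL, at chr19:49468765-49468864 (GRCh37, plus strand), differed from chr20:4004564-4004663 at 1 base, in capitals.
FTL: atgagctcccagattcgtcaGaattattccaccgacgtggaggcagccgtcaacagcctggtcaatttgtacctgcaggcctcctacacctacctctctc
FTLP3: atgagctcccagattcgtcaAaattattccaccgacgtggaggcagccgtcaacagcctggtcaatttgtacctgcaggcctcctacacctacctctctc

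The FTL messenger also carries the iron-responsive hairpin that the product of IREB2 binds. It was found in the untranslated leader at chr19:49468593-49468619 (GRCh37, plus strand), by a search for an unpaired C, an arm of 5 bases, the loop CAGTGN and a second arm of 5 bases that pairs with the first, G-T pairs allowed. The loop is in capitals.
FTL hairpin: tcttgcttcaaCAGTGTttggacggaa

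The count tables were deep enough for 9 of the 10 genes. Each library had between 34573053 and 48933893 reads on genes. Of all entries tallied, between 35.63% and 36.23% stood in the line for alignments to several places, a share that hardly moved between the groups. Whether a read stands there once or once per alignment is not given, so the share of reads left out may be smaller. The setting called library sizes of all reads tallied uses this same total. Expression is given in CPM, read counts scaled to a common library size after TMM normalization, and a gene passed the test when its adjusted p was under 0.05 by edgeR's quasi-likelihood test over 13546 genes. A gene was called when it also changed by at least 1.5-fold. Of 10 epithelial and ovarian markers, KRT7, KRT8, KRT18 and VIM were well expressed and PAX8 and WT1 weakly. The other 4, KRT19, EPCAM, MUC16 and CDH1, had 3 or fewer counts in every library, with CDH1 at 0. All 9 erythroid markers had 3 or fewer counts in every library, with HBA1, HBA2, ALAS2 and EPB42 at 0. Of 8 macrophage and leukocyte markers 5 had 3 or fewer counts, with C1QA, C1QB and MARCO at 0, and the summed level of all 8 was 0.882 to 1.12 CPM in vehicle and 0.498 to 0.675 CPM in Liq. CSF1R made the largest part of that sum, with 36 and 27 counts in vehicle and 12 and 15 in Liq. CD14 came close to it in Liq replicate 1 (0.309 against 0.337 CPM). CSF1R was called lower in edgeR (adjusted p = 0.007349) and was not called in DESeq2. Of the epithelial and ovarian list PAX8 (0.39-fold, adjusted p = 0.002137) and WT1 (0.62-fold, adjusted p = 0.002849) were called lower in edgeR. Under the fold threshold, KRT7 was higher (1.42-fold, adjusted p = 1.081e-05) and VIM (0.83-fold, adjusted p = 0.0003409) and KRT18 (0.85-fold, adjusted p = 0.01322) were lower. The part of these marker differences in the results below was not tested.

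Of the 9 tested genes, HMOX1 and FTH1 were called higher with Liq and 0 were called lower, in edgeR and in the DESeq2 Wald test alike, and 0 were lower at an unadjusted p under 0.05, where 17.3% of all tested genes were. Among all tested genes 6.45% were called, 4.29% higher and 2.16% lower. Without the fold threshold 5 of the 9 passed the test as higher (HMOX1, BLVRB, FTH1, FECH and SLC11A2) and 0 as lower, where 12.6% and 11.3% of all tested genes did. The 9 genes had a median change of 0.32 on the log2 scale, and all tested genes one of 0.01. Over all tested genes, the calls numbered 581 higher and 293 lower, and offsets that follow the expression level turned this split to 356 and 393, with HMOX1 and FTH1 called under both.

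**Figure D2:**
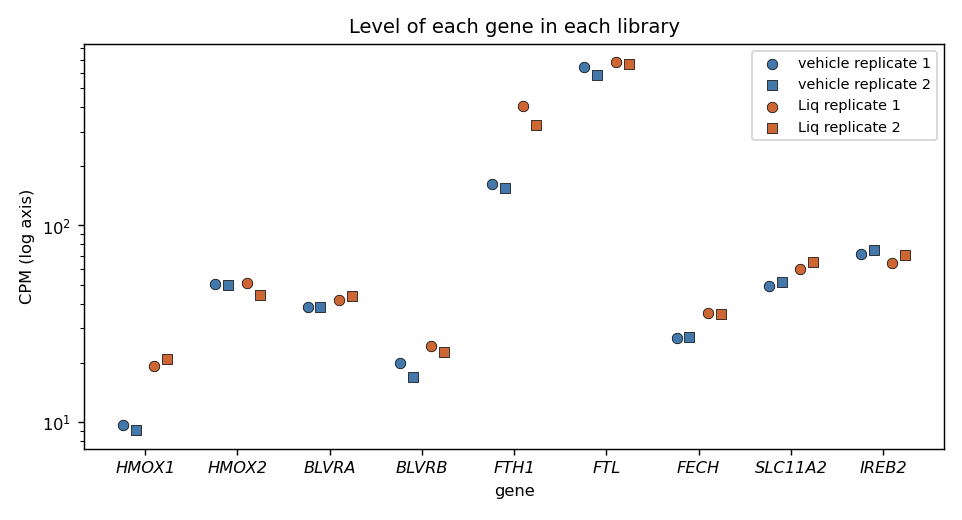
Level of each of the 9 tested genes in each library, in CPM on a log axis, for vehicle (blue) and Liq (orange) with circles for replicate 1 and squares for replicate 2. HMOX1 and FTH1 stand clear of their vehicle libraries, HMOX2 overlaps, and SLC40A1 is left out because it had 0 counts in all 4 libraries.

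HMOX1 encodes the inducible heme oxygenase, the rate-limiting step of heme breakdown. It lies at chr22:35776354-35790207 (GRCh37, plus strand) and its main transcript has 5 exons. The vehicle libraries held 394 and 338 counts and the Liq libraries 680 and 1049, or 9.58 and 9.03 CPM against 19.1 and 20.9 CPM. Both Liq libraries lay well above both vehicle libraries, with no overlap. HMOX1 rose 2.15-fold (95% interval 1.85 to 2.50), or by 1.11 ± 0.11 (SE) on the log2 scale, with an adjusted p of 1.23e-08 in edgeR. It was the only one of the tested genes below 10 CPM in vehicle.

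HMOX2, the constitutive heme oxygenase at chr16:4524691-4560348 (plus strand), did not follow HMOX1. It stood at 50.3 and 49.9 CPM in vehicle and at 51.2 and 44.2 CPM in Liq, so that the groups overlapped. Its log2 fold change was -0.07 (95% interval -0.25 to 0.10, adjusted p = 0.5789 from edgeR), and without Liq replicate 2 it was 0.030. The ratio of HMOX1 to HMOX2 counts, which does not depend on the scaling between libraries, was 0.191 and 0.181 in vehicle and 0.374 and 0.473 in Liq. The geometric mean of the ratio was 2.26-fold higher with Liq and the groups did not overlap. However, an exact permutation test of 2 against 2 libraries cannot give a two-sided p below 0.3333, which was its value here.

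Of the biliverdin reductases, BLVRB (chr19:40953672-40971671, minus strand), which also reduces flavins, stood at 19.97 and 16.86 CPM in vehicle and at 24.2 and 22.7 CPM in Liq. The groups did not overlap, which held upward for 31.5% of all tested genes. BLVRB rose 1.27-fold (95% interval 1.10 to 1.47, adjusted p = 0.01457 from edgeR), under the fold threshold. It did not pass without vehicle replicate 2, where the log2 fold change was 0.23 instead of 0.34 (adjusted p = 0.3347 from edgeR). BLVRA (chr7:43798279-43846941, plus strand), the main reductase of biliverdin in adult tissue, stood at 38.5 and 38.2 CPM in vehicle and 41.5 and 43.7 CPM in Liq, and did not pass the test, with a log2 fold change of 0.15 (95% interval -0.02 to 0.33, adjusted p = 0.1992 from edgeR). The ratio of BLVRB to BLVRA counts overlapped between the groups, at 0.519 and 0.441 in vehicle and 0.583 and 0.518 in Liq.

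FTH1, the ferritin heavy chain, which holds the ferroxidase activity that oxidizes iron for storage, had the largest fold change of the 9 genes. It lies at chr11:61727190-61735106 (minus strand). The vehicle libraries held 6719 and 5800 counts and the Liq libraries 14444 and 16273, or 163 and 155 CPM against 406 and 324 CPM. Every Liq library was far above every vehicle library, and the Liq libraries differed between themselves by more than the vehicle ones. FTH1 rose 2.29-fold (95% interval 2.04 to 2.58), or by 1.20 ± 0.08 (SE) on the log2 scale, with an adjusted p of 2.713e-11 in edgeR. The log2 fold change was 1.03 without Liq replicate 1 and 1.35 without Liq replicate 2, and it passed the test in both cases.

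FTL, the ferritin light chain, which helps the iron core form, was the most abundant of the genes, at chr19:49468566-49470136 (plus strand). It held 26311 and 21883 counts in vehicle and 24111 and 33364 in Liq, or 640 and 584 CPM against 678 and 665 CPM. The Liq libraries lay slightly above the vehicle libraries. The log2 fold change of 0.13 (95% interval 0.0024 to 0.26) did not pass the test (adjusted p = 0.1314 from edgeR). It passed with offsets along the expression level (0.22, adjusted p = 0.01033) and with library sizes of all reads tallied (0.19, adjusted p = 0.03232), both from edgeR, and stayed below 1.5-fold in each. Without vehicle replicate 2 it was 0.068 (adjusted p = 0.7169 from edgeR).

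The ratio of FTH1 to FTL counts was 0.255 and 0.265 in vehicle and 0.599 and 0.488 in Liq, with no overlap. Its geometric mean was 2.08-fold higher with Liq (exact permutation p = 0.3333, two-sided, the smallest that 2 against 2 libraries allow). The counts behind the ratio exclude the reads with several alignments. The shares of copied windows given above describe the genome, and the share of ferritin reads left out in each library was not tested. The only rows for ferritin copies, by symbols that begin with FTH1P or FTLP, were FTH1P3 and FTLP10. The other copies matched above, FTLP3 among them, had no such row. FTH1P3 had 4 and 6 counts in vehicle and 13 and 22 in Liq. The difference was 1.65 ± 0.52 (SE) on the log2 scale, with an adjusted p of 0.02149 in edgeR. FTH1P3 did not pass with offsets along the expression level (1.396, adjusted p = 0.05926 from edgeR). It also did not pass without vehicle replicate 1 (1.33), vehicle replicate 2 (2.03) or Liq replicate 2 (1.496). FTLP10 had 0 counts in every library. Whether reads on FTH1P3 came from FTH1 was not tested. In the annotation used here 880 of the 1203 bases of the FTH1 transcript also lie in exons of BEST1 on the opposite strand, and BEST1 itself had between 19 and 34 counts per library. How such reads were assigned depends on the annotation and the strand setting of the counting, which are not given in the sources used here.

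**Figure D3:**
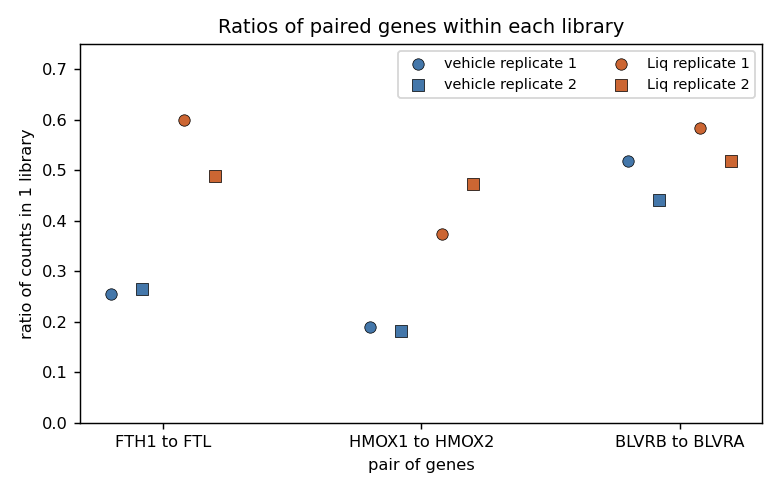
Ratio of the counts of paired genes within each library, with the axis starting at 0, for vehicle (blue) and Liq (orange) with circles for replicate 1 and squares for replicate 2. FTH1 to FTL and HMOX1 to HMOX2 are higher in both Liq libraries than in both vehicle libraries, while BLVRB to BLVRA overlaps.

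FECH (chr18:55211609-55253964, minus strand) encodes ferrochelatase, which puts iron into protoporphyrin to make heme. It stood at 26.6 and 27.1 CPM in vehicle and at 36.0 and 35.6 CPM in Liq, with close replicates and no overlap. FECH rose 1.33-fold (95% interval 1.17 to 1.51, adjusted p = 0.001208 from edgeR), under the fold threshold.

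Of the iron transporters, SLC40A1 (ferroportin, the iron exporter, chr2:190425316-190448484, minus strand) had 0 counts in all 4 libraries and was not tested. A count of 0 allows a level of up to 0.0598 to 0.0844 CPM per library, which is 3 counts and covers counting error only. SLC11A2 (the divalent metal importer DMT1, chr12:51373184-51422349, minus strand) stood at 48.9 and 51.2 CPM in vehicle and at 60.3 and 64.8 CPM in Liq, without overlap. It rose 1.25-fold (95% interval 1.11 to 1.40, adjusted p = 0.004888 from edgeR), but did not pass without vehicle replicate 1 (log2 fold change 0.29 instead of 0.32, adjusted p = 0.1555) or vehicle replicate 2 (0.35, adjusted p = 0.05603). Counts per gene sum its isoforms with and without the iron-responsive hairpin, so these could not be told apart.

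IREB2 (iron regulatory protein 2, chr15:78729773-78793795, plus strand) stood at 71.2 and 74.8 CPM in vehicle and at 64.5 and 70.7 CPM in Liq. Both Liq libraries lay below both vehicle libraries, as in 30.2% of all tested genes, and the difference did not pass the test, with a log2 fold change of -0.11 (95% interval -0.27 to 0.05, adjusted p = 0.3352 from edgeR).

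**Figure D4:**
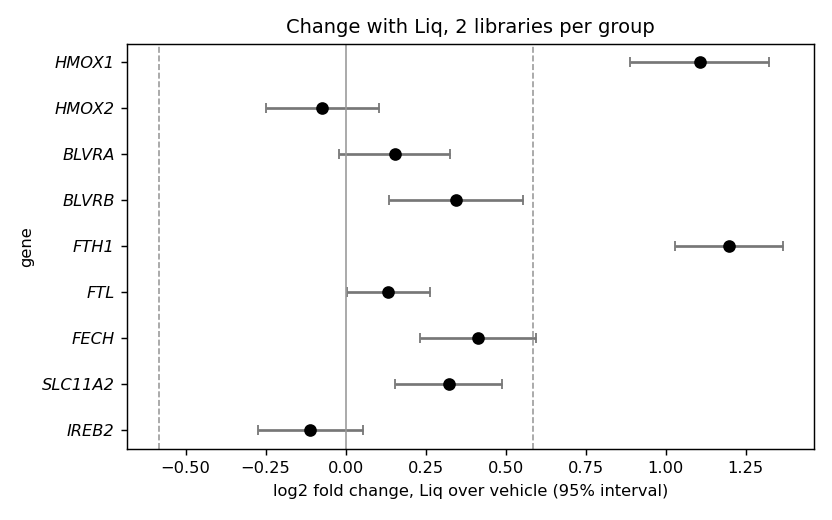
Log2 fold change of Liq over vehicle for the 9 tested genes, with points for the estimate and bars for the 95% interval from edgeR (2 libraries per group). Dashed lines mark a 1.5-fold change. Only HMOX1 and FTH1 lie beyond the upper line with their whole interval, and the intervals of HMOX2, BLVRA and IREB2 cross 0.

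Levels were compared between genes as CPM per kilobase of the main transcript. The lengths come from GENCODE, the annotation used for the counts is not given, and the order rests on these lengths. FECH was divided by 7689 bases, and in CPM alone it stood above HMOX1 in vehicle (26.85 against 9.306). In vehicle FTL stood highest at 703 ± 45.0 CPM per kilobase (SD, n = 2), followed by FTH1 (132 ± 4.99), BLVRA (35.7 ± 0.18), HMOX2 (30.0 ± 0.15), BLVRB (23.0 ± 2.76), SLC11A2 (12.1 ± 0.40), IREB2 (11.6 ± 0.40), HMOX1 (5.99 ± 0.25) and FECH (3.49 ± 0.05). Of these neighbours SLC11A2 and IREB2 differed by about their spread. With Liq FTH1 stood at 304 ± 48.2 and FTL at 771 ± 10.8 CPM per kilobase, and HMOX1 at 12.9 ± 0.81 had passed IREB2 at 10.7 ± 0.70 (SD, n = 2). BLVRB at 29.3 ± 1.38 and HMOX2 at 28.5 ± 2.94 could then not be ordered beyond their spread. The ferritin levels depend on how copied windows are treated. Per kilobase of windows with no identical copy, the level in vehicle was 186 CPM for FTH1 and 821 CPM for FTL, and in Liq it was 427 and 900 CPM. Per kilobase of windows with no copy within 2 mismatches, the level in vehicle was 309 CPM for FTH1 and 1590 CPM for FTL, and in Liq it was 709 and 1744 CPM. Reads from windows whose copies differ at 1 or 2 bases may still have been counted, which would make these last levels too high. How many were counted was not tested.

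Genes that make, move or regulate heme and iron, were taken from lists written by hand. Of 10 tested genes of heme synthesis, a list that holds FECH, 0 were called in edgeR or DESeq2, with 2 higher and 2 lower at an adjusted p under 0.05 and 4 higher and 2 lower at an unadjusted p under 0.05, which 18.8% of all tested genes met as higher and 17.3% as lower. FECH and UROS, which closes the porphyrin ring, were the higher ones. UROS went from 36.3 ± 0.46 to 47.2 ± 1.10 CPM (SD, n = 2), with a log2 fold change of 0.38 (adjusted p = 0.001588 from edgeR) that was 0.37 without vehicle replicate 1 (adjusted p = 0.05905). The lower ones, named after their values were seen, were ALAS1, the rate-limiting first enzyme of heme synthesis outside erythroid cells, and UROD. ALAS1 stood at 59.1 and 59.5 CPM in vehicle and 46.3 and 46.6 CPM in Liq, a log2 fold change of -0.35 (adjusted p = 0.002006 from edgeR), and it narrowly missed the threshold without vehicle replicate 1 (adjusted p = 0.05117) or vehicle replicate 2 (adjusted p = 0.05586). UROD had a log2 fold change of -0.25 (adjusted p = 0.01723 from edgeR) that was lost without vehicle replicate 1 (-0.16, adjusted p = 0.4389) or Liq replicate 2 (-0.19, adjusted p = 0.05975) and with offsets along the expression level (-0.19, adjusted p = 0.07734) or library sizes of all reads tallied (-0.20, adjusted p = 0.05816). The first and the last enzyme of the route moved oppositely, and the ratio of FECH to ALAS1 counts, also chosen after the values were seen, was 0.449 and 0.456 in vehicle and 0.778 and 0.763 in Liq.

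Of 9 tested heme transport genes 0 were called in edgeR or DESeq2, 3 were higher and 0 lower at an adjusted p under 0.05, and 4 higher and 0 lower at an unadjusted p under 0.05, beside 18.8% and 17.3% of all tested genes. LRP1, which takes up heme bound to hemopexin among many other ligands, rose from 72.0 ± 8.54 to 100.1 ± 3.47 CPM (SD, n = 2). It rose by 0.47 on the log2 scale (adjusted p = 0.000132 from edgeR), and by more than 1.5-fold without vehicle replicate 1 (0.60). ABCB6, a porphyrin transporter, had a log2 fold change of 0.42 (adjusted p = 0.00269 from edgeR) that was 0.40 without vehicle replicate 1 (adjusted p = 0.05742). SLC46A1, named after its value was seen, had one of 0.41 (adjusted p = 0.03769) that did not pass without vehicle replicate 1 (0.54, adjusted p = 0.06444), vehicle replicate 2 (0.30, adjusted p = 0.3411) or Liq replicate 1 (0.40, adjusted p = 0.05788) or with offsets along the expression level (0.28, adjusted p = 0.1758), all from edgeR, nor in the DESeq2 Wald test (0.41, adjusted p = 0.179).

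Of 17 tested genes of iron uptake, transport and regulation, TFRC and HFE were higher and 0 lower at an adjusted p under 0.05, 0 were called in edgeR or DESeq2, and 3 were higher and 1 lower at an unadjusted p under 0.05, beside 18.8% and 17.3% of all tested genes. TFRC, the transferrin receptor, stood at 473 and 494 CPM in vehicle and 543 and 624 CPM in Liq, a log2 fold change of 0.27 (adjusted p = 0.004795 from edgeR). It did not pass without vehicle replicate 1 (0.24, adjusted p = 0.09476) or Liq replicate 2 (0.17, adjusted p = 0.08028). HFE, a partner of the transferrin receptor, had a log2 fold change of 0.32 (adjusted p = 0.02273 from edgeR) that did not pass without vehicle replicate 1 (0.36, adjusted p = 0.1116), vehicle replicate 2 (0.28, adjusted p = 0.2238) or Liq replicate 2 (0.25, adjusted p = 0.102), nor with offsets along the expression level (0.28, adjusted p = 0.05148) or in the DESeq2 Wald test (0.31, adjusted p = 0.06726). ACO1, which turns into iron regulatory protein 1 when it loses its iron-sulfur cluster, stood at 248 and 252 CPM in vehicle and 231 and 242 CPM in Liq, and did not pass (log2 fold change -0.08, adjusted p = 0.4233 from edgeR).

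Iron-sulfur cluster assembly, the other main use of cellular iron, had 23 tested genes, of which 19 had a log2 fold change below 0 and 4 above it, where 49% and 51% of all tested genes did. The median was -0.13, against 0.01 for all tested genes. Of these, 0 were called in edgeR or DESeq2, and at an adjusted p under 0.05 0 were higher and HSPA9, a mitochondrial chaperone, was lower. At an unadjusted p under 0.05, 1 was higher and 6 were lower, beside 18.8% and 17.3% of all tested genes. HSPA9 had a log2 fold change of -0.20 (adjusted p = 0.02209 from edgeR), and did not pass with offsets along the expression level (-0.11, adjusted p = 0.2214), with library sizes of all reads tallied (-0.14, adjusted p = 0.1146) or without vehicle replicate 1 (-0.20, adjusted p = 0.1631), vehicle replicate 2 (-0.19, adjusted p = 0.1901) or Liq replicate 1 (-0.16, adjusted p = 0.1043). FAM96B, an adaptor that hands clusters to cytosolic and nuclear proteins, had one of -0.25 (adjusted p = 0.05507 from edgeR). It was -0.10 without vehicle replicate 1 (adjusted p = 0.7211) and -0.16 without Liq replicate 2 (adjusted p = 0.1859), and passed without vehicle replicate 2 (-0.38, adjusted p = 0.03161) or Liq replicate 1 (-0.34, adjusted p = 0.001735), with DESeq2 size factors (-0.25, adjusted p = 0.04879) and with no filter on low counts (-0.26, adjusted p = 0.02538), all from edgeR.

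In the list of BACH1, NRF2 and related or partner factors, 0 of 8 genes were higher at an adjusted p under 0.05 and 3 were lower (edgeR). At an unadjusted p under 0.05, 0 were higher and 4 lower, beside 18.8% and 17.3% of all tested genes. The small MAF gene MAFF was the one called, by edgeR and by DESeq2, and fell from 100.0 ± 1.61 to 51.7 ± 1.98 CPM (SD, n = 2). On the log2 scale its change was -0.95 ± 0.08 (SE), with an adjusted p of 7.895e-10 in edgeR. MAFK and NFE2L2, which encodes NRF2, were named after their values were seen. MAFK fell by 0.48 on the log2 scale (adjusted p = 0.000202 from edgeR). NFE2L2 stood at 143 and 151 CPM in vehicle and 119 and 125 CPM in Liq, a log2 fold change of -0.27 (adjusted p = 0.008329 from edgeR) that did not pass without vehicle replicate 1 (-0.31, adjusted p = 0.07384) or vehicle replicate 2 (-0.23, adjusted p = 0.2089). BACH1 stood at 153 and 159 CPM in vehicle and 135 and 155 CPM in Liq, and the groups overlapped, with a log2 fold change of -0.10 (adjusted p = 0.3563 from edgeR) that passed without Liq replicate 2 (-0.21, adjusted p = 0.03863).

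**Figure D5:**
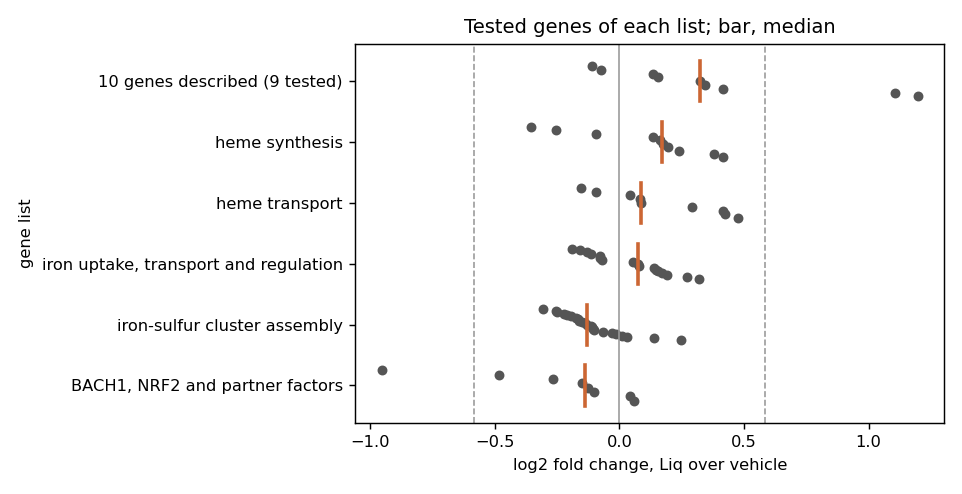
Log2 fold change of Liq over vehicle for the tested genes of the described group and of 5 lists of related genes, with 1 point per gene, a bar for the median and dashed lines at a 1.5-fold change. HMOX1 and FTH1 lie beyond the upper line, MAFF lies beyond the lower one, and the iron-sulfur genes centre on -0.13.

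Promoter windows of RefSeq (GRCh38.p14, 250 bases before to 50 after the start) were found for 8 of the 10 genes, all but HMOX1 and FTH1. They were searched on both strands for TGACNNNGC, the core of the antioxidant response element, which 13.3% of all 35116 windows held. Of the 13 windows of these genes 1 held it, that of FECH, shown because FECH rose. The 250 bases before the FECH start lie at chr18:57586703-57586952 (GRCh38.p14, minus strand), with the match, read from the opposite strand, in capitals and beginning 38 bases before the start. A match of this kind is a description of the letters and not a binding site.
FECH: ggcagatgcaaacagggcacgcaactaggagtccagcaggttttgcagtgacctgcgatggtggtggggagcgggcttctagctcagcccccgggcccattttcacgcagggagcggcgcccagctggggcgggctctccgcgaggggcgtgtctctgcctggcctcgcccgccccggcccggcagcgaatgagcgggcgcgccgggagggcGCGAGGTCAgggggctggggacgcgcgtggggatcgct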

How the data were processed

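Total RNA of ES2 cells, 2 vehicle and 2 Liq samples, was sequenced by the authors as 100-base single-end TruSeq reads. Per the labels and the submitters' processing notes, bcl2fastq 2.17.1.14 and TopHat2 2.0.8b were used with hg19 (GRCh37), and the authors deposited raw read counts per gene from HTSeq, neither normalized nor pooled. The HTSeq version, strand setting, gene annotation and mismatch allowance are not given in the sources used here. The 5 tally lines at the end of each table were kept out of library sizes and tests.

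The counts were tested in edgeR 4.0.16 under R 4.3.3 (filterByExpr, minimum count 10 and minimum total 15, then TMM, glmQLFit and glmQLFTest without a replicate block), which tested 13546 of 23228 genes, with Benjamini-Hochberg adjustment over all of them. Intervals are 95% intervals of the fitted change. CPM used TMM-scaled library sizes of the tested genes. Sequences and gene positions come from GRCh37 with GENCODE, promoters from RefSeq. Windows were matched without gaps. Window sequences of FTH1 are not reported here.

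The named genes were the 10 genes, the list genes with the smallest p-values (up to 4 called ones, otherwise 2), TFRC, ACO1, BACH1 and ferritin copies with at least 10 counts in a sample. Genes, lists and tests were chosen with earlier results of these data known, and the ratios after the values were seen. Alternatives were 4 other scalings, 2 filters, DESeq2 1.42.0, a replicate block, each library left out, other thresholds and ferritin copy rows added to their parents. Adding the copy rows could hardly change FTH1 (log2 fold change 1.198 against 1.197) or FTL, as FTH1P3 had few counts and FTLP10 had 0. The fits were tested on simulated counts.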

Additional observations from a re-analysis of the deposited data

How the results depend on the processing

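HMOX1 (log2 fold change 1.04 to 1.17) and FTH1 (1.03 to 1.35) were called under each of the alternatives run for them, 12 and 13, and FECH (0.40 to 0.47) passed the adjusted p in all 12. Over the 9 tested genes 103 of 110 alternative values kept their direction and their side of the adjusted p threshold. Of the other 7, HMOX2 changed sign without Liq replicate 2, its values without 1 library running from -0.18 to 0.030, BLVRB and SLC11A2 lost the test without a vehicle library as given above, and FTL gained it under 3 settings. With the replicate number as a block FAM96B passed (-0.24, adjusted p = 0.006183 from edgeR), FTL had a log2 fold change of 0.13 (adjusted p = 0.01761 from edgeR), 2 of the 9 genes were still called higher and the calls over all genes were 601 higher and 297 lower. The labels give only a shared number, and the correlation of same-numbered deviations across genes was 0.129 with 2 pairs, so the numbers were not taken as pairs. For the 16 other named genes 153 of 190 values stayed on the same side, 31 lost and 6 gained the test, and 0 changed sign. Without the fold threshold 5 of the 9 genes were higher, and over all genes 1712 were higher and 1533 lower. At 2-fold these counts were 209 and 119. The higher calls over all genes fell to 356 with loess offsets and to 339 in the DESeq2 Wald test. Without 1 library the heme transport list had 0 to 1 gene called higher, the 1 being LRP1. Causes of these shifts were not tested. Fits without 1 library leave a group of 1, which is assumed to vary like the other group. Depth limits SLC40A1 to an upper bound and FTH1P3 to wide intervals.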
